A study of Mus musculus with 6 samples.

Results

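The machinery that copies DNA was followed here through 56 genes chosen by function, from origin recognition to chromatin assembly behind the fork. All 56 were present among the 11866 genes of the deposited table, and all 56 passed the minimum mean of 1 FPKM (fragments scaled to transcript length and library size) that left 10770 genes for testing. The RNA came from HCC3-4 cells, which were grown from liver tumours of mice with a MYC transgene. In 3 libraries, named KD 1 to 3, the cells carried a stable short hairpin RNA against Sf3b3, and in 3 libraries, named PLKO 1 to 3, they carried the empty pLKO.1-TRC vector. Its product belongs to SF3b, the spliceosomal complex that binds intron branch points. The labels name 1 hairpin and no rescue, and do not say whether the libraries of a group are separate cultures, and every p-value here is set against library-to-library spread alone, which could be technical.

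DNA replication starts at origins, where the origin recognition complex (ORC) with Cdc6 and Cdt1 loads the MCM helicase in G1 phase. The kinase Cdc7-Dbf4 and the cyclin E kinases then turn on the helicase together with Cdc45 and GINS, and DNA polymerase alpha-primase lays the primers that polymerases delta and epsilon extend on the PCNA clamp. Many of these genes are transcribed in bursts at the entry into S phase under E2F factors, so that their messenger levels follow how many cells of a population are cycling. In bulk RNA a larger share of cells in S phase and more transcript per cell cannot be told apart.

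The libraries held 15140441 to 17566101 reads on listed genes. Sf3b3 stood at 22.6, 28.7 and 29.2 FPKM in PLKO 1 to 3 and at 10.3, 9.56 and 13.9 FPKM in KD 1 to 3, which is 38.4%, 35.6% and 51.8% of the PLKO mean in the KD libraries (log2 fold change -1.26, SE 0.23, limma adjusted p = 0.037). Library KD 3 thus kept the most Sf3b3 of the KD group. Of 10 hepatocyte markers, Afp, Krt8 and Krt18 were listed, while Alb, Apoa1, Apob, Ttr, Hnf4a, Serpina1a and Tf were not. The listed ones summed to 59.7 to 86.7 FPKM in PLKO and 52.6 to 86.9 FPKM in KD. Of 4 cholangiocyte markers, Krt19 and Sox9 were listed, and Krt7 and Epcam were not. Krt19 and Sox9 summed to 54.1 to 80.7 FPKM in PLKO and 63.2 to 70.6 FPKM in KD. Neither Ptprc nor any of 3 endothelial markers was listed. The summed level of the listed fibroblast markers Col1a1, Col1a2 and Pdgfrb was 56.5 to 81.1 FPKM in PLKO and 25.3 to 42.3 FPKM in KD, and Cd68, the listed marker of 4 for leukocytes, was at 9.19 to 42.1 and 44.4 to 95.0 FPKM. The part of these differences in the results below was not tested.

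Promoter sequence was available from RefSeq (GRCm38.p6) for 46 of the 56 genes. The 250 bases before the annotated start were searched on both strands for 4 E2F words and for the CCAAT word, and words may overlap. The E2F words read TTCCCGC, then the variant TTCGCGC, then the variant TTGCCGC, and last the variant TTGGCGC. Mcm3 and Mcm6 encode subunits of a single helicase ring, of which all 6 genes lay higher in KD. Neither Mcm3 nor Mcm6 was called with all libraries (limma adjusted p = 0.066 and 0.20). Prim1 and Mcm8 were called lower in KD with all libraries (limma adjusted p under 0.05). The promoters of these 4 genes are shown, and no rule for this choice was set beforehand. They are written 5′ to 3′ on the strand of the gene, with E2F and CCAAT words in capitals, for Mcm3 (chr1:20820313-20820562, minus strand), Mcm6 (chr1:128359706-128359955, minus strand), Prim1 (chr10:128014965-128015214, plus strand) and Mcm8 (chr2:132815891-132816140, plus strand).
Mcm3: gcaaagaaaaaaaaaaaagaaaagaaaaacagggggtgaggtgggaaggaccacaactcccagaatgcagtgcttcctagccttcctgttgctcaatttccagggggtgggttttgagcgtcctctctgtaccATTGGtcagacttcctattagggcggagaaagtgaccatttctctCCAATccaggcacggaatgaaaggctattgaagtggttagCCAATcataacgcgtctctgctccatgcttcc
Mcm6: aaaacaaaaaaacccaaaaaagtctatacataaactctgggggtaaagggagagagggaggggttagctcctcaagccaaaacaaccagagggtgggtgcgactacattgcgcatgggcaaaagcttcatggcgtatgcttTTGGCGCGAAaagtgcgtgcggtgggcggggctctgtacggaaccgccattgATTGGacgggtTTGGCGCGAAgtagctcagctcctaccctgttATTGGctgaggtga
Prim1: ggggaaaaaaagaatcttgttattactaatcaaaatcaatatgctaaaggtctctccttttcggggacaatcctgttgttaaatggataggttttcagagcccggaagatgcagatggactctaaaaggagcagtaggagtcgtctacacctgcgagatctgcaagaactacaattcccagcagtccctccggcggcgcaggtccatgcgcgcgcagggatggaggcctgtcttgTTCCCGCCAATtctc
Mcm8: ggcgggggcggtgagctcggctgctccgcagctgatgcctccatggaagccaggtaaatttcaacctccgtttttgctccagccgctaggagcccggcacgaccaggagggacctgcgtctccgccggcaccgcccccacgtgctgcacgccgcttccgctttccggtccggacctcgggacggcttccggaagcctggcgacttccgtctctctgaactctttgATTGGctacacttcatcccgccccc
The Mcm3 window held 3 CCAAT words and 0 E2F words, the Mcm6 window 2 CCAAT words and 4 E2F words, the Prim1 window 1 of each, which overlap, and the Mcm8 window 1 CCAAT word. In the Mcm6 window the E2F words overlap in pairs, which begin 109 and 106 and then 46 and 43 bases before the start. An E2F word was present in 37.0% of the 46 promoters, against 15.3% of the 8263 tested genes with a promoter and 7.97% of all 27025 genes in the table. A CCAAT word was present in 47.8%, 37.5% and 34.5%. The median log2 fold change of the 17 replication genes with an E2F word was 0.17 and that of the 29 without was 0.23. All tested genes had -0.02 with and -0.05 without an E2F word. The genes without promoter sequence, among them Mcm4 (1.25) and Prim2 (-1.31), are outside the medians by word. For the 22 genes with a CCAAT word it was 0.38 and for the 24 without it was -0.14, where all tested genes had -0.04 with and -0.04 without the word. These are matches of letters before the RefSeq start, which can differ from the gene bounds given below (GENCODE M21), and describe no binding.

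Replication genes lay on both sides of 0 in the knockdown. Of the 56 genes, 32 lay higher and 24 lower in KD. Their median difference was 0.17 on the log2 scale, against -0.04 over all tested genes, of which 47.7% lay higher. The genes that passed the test over all genes were Prim1, the catalytic subunit of primase, and Mcm8, a helicase of DNA repair, and both fell. These 2 calls are 3.57% of the genes, beside 2.92% of all tested genes called in either direction and 1.79% called lower (1.12% were called higher). With the replicate number as a block 14 genes were called, 9 higher and 5 lower, which is 25.0% against 19.3% of all tested genes (8.19% higher and 11.1% lower). The labels state no pairing of libraries. The pairing by number was taken from these same data and is ambiguous, so the block fit gives no independent support for a gene. In 10 genes, 5 in each direction, the 3 KD values did not overlap the 3 PLKO values, which is 17.9% against 32.1% of all tested genes (13.4% higher and 18.8% lower). By direction, 16.1% of the replication genes were called higher and 8.93% lower with the block. The description that follows is by complex.

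**Figure D1:**
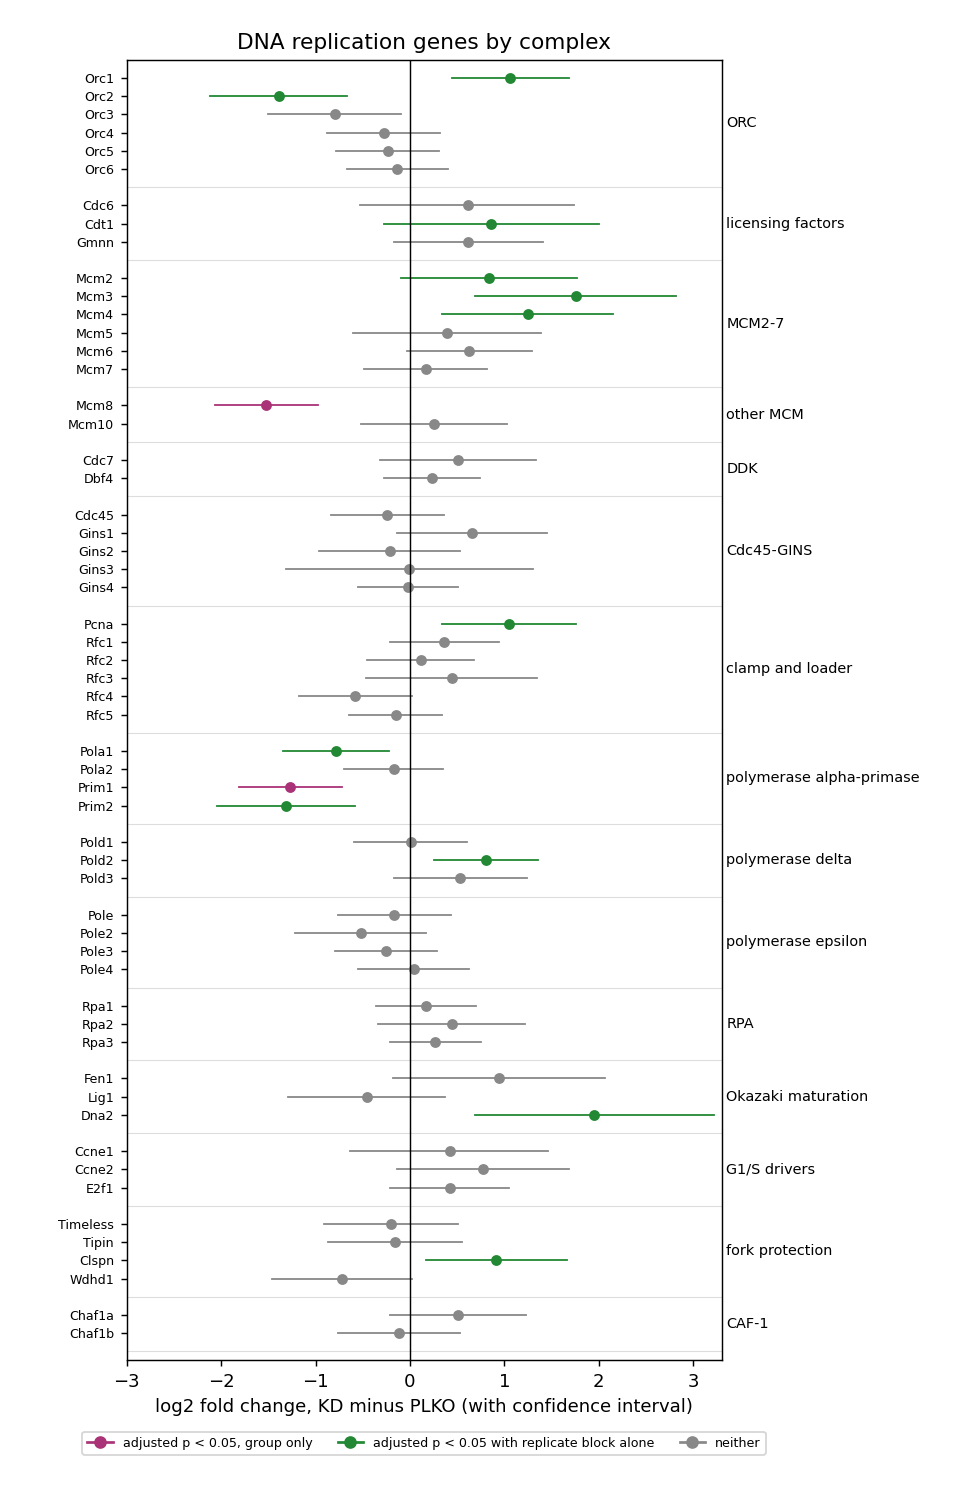
Log2 fold change of each of the 56 genes (points) with the 95% confidence interval (lines), KD minus PLKO, 3 libraries per group, grouped by complex and coloured by the fit in which the gene was called. All 6 genes of the MCM2-7 ring lie to the right of 0, all 4 of polymerase alpha-primase lie to the left, and ORC holds 1 gene to the right and 5 to the left.

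The 6 ORC genes were split. Orc1, the ATPase subunit whose level is regulated over the cell cycle, had 4.92, 4.30 and 3.99 FPKM in PLKO 1 to 3 and 12.0, 9.94 and 6.44 FPKM in KD 1 to 3. Every KD value exceeded every PLKO value (log2 fold change 1.06, SE 0.27, limma adjusted p = 0.062, and 0.011 with the replicate block). Orc2, a core subunit, went the other way, with 15.7, 25.6 and 11.7 FPKM in PLKO and 7.90, 6.81 and 4.83 FPKM in KD. The groups again did not overlap (-1.39, SE 0.32, limma adjusted p = 0.053, and 0.0042 with the block). Within each library the ratio of Orc1 to Orc2 level was 0.314, 0.168 and 0.342 in PLKO and 1.52, 1.46 and 1.33 in KD, so the order of the pair was inverted in all 3 KD libraries. This ratio was chosen after the values were seen and was not tested. Orc2 shares 1150 bases of exon with Nif3l1 on the opposite strand, as do Orc1 with Gm12743 (376 bases), Gins2 with Gse1 (2758), Chaf1a with Ubxn6 (4648) and Ccne2 with Ints8 (609), and the use of strand in the counting is not given in the sources used here. Orc3, Orc4, Orc5 and Orc6 had log2 fold changes from -0.79 to -0.14 (limma adjusted p from 0.14 to 0.73), with Orc6 the most abundant ORC transcript at 25.6 ± 3.97 FPKM in PLKO (SD, n = 3) and 23.5 ± 5.25 in KD. The low end was Orc3, at 13.8, 10.4 and 12.4 FPKM in PLKO and 4.76, 6.59 and 10.9 FPKM in KD, where KD 3 reached into the PLKO range.

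The licensing factors all lay higher in KD, and none passed the test without the block. Cdt1, which brings the helicase to ORC, had 67.0, 70.5 and 21.5 FPKM in PLKO and 134, 93.3 and 48.5 FPKM in KD. The groups overlapped because PLKO 1 and PLKO 2 exceeded KD 3 (log2 fold change 0.86, SE 0.50, limma adjusted p = 0.29, and 0.023 with the block). Cdc6, the ATPase that closes the ring with ORC, had 4.96, 4.08 and 2.48 FPKM in PLKO and 11.3, 6.06 and 2.61 FPKM in KD, with KD 3 at the level of PLKO 3 (0.61, limma adjusted p = 0.45). Gmnn, the inhibitor of Cdt1, had a log2 fold change of 0.62 (limma adjusted p = 0.27), with 22.7 ± 9.55 FPKM in PLKO and 34.6 ± 11.6 FPKM in KD.

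The MCM2-7 genes, whose products form a ring with 1 copy of each subunit, all lay higher in KD (median log2 difference 0.74), with log2 differences from 0.17 to 1.76. Without KD 1 the difference of Mcm5 was -0.01, and none of the 6 was called without the block. Mcm3 (chromosome 1, 20802968 to 20820312) had 40.8, 22.1 and 27.5 FPKM in PLKO and 182, 119 and 44.3 FPKM in KD. The groups did not overlap, but KD 3 lay just above PLKO 1 (log2 fold change 1.76, SE 0.47, limma adjusted p = 0.066, and 0.0042 with the block). Mcm4 had 42.2, 23.1 and 31.3 FPKM in PLKO and 122, 84.8 and 39.6 FPKM in KD, so that KD 3 fell inside the PLKO range (1.25, SE 0.40, limma adjusted p = 0.092, and 0.012 with the block). Mcm2 had 24.0, 16.8 and 15.2 FPKM in PLKO and 56.4, 37.8 and 16.6 FPKM in KD, again with KD 3 inside the PLKO range (0.84, SE 0.41, limma adjusted p = 0.22, and 0.037 with the block). For Mcm6, Mcm5 and Mcm7 the log2 differences were smaller, 0.63, 0.39 and 0.17, at limma adjusted p = 0.20, 0.58 and 0.73. Mcm7, with the smallest difference, had 42.8, 29.6 and 26.4 FPKM in PLKO and 43.7, 43.9 and 24.8 FPKM in KD. Its exons overlap Ap4m1 and Cops6 on the opposite strand.

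The order of the MCM transcripts is given by their level. Per length, the PLKO means ran from 18.7 ± 4.68 FPKM for Mcm2 to 41.0 ± 9.51 FPKM for Mcm6, with Mcm3 at 30.1 ± 9.59 FPKM between them. In KD, Mcm3 had the highest mean of the ring, 115 ± 68.9 FPKM, followed by Mcm4 at 82.1 ± 41.2 FPKM, and Mcm7 and Mcm2 were lowest at 37.5 ± 11.0 and 36.9 ± 19.9 FPKM. The SDs of neighbours in this order overlap, although Mcm3 exceeded Mcm4 in each of the 3 KD libraries. No difference between the subunits was tested. Inside a library, Mcm3 stood to Mcm7 at 0.953, 0.748 and 1.04 in PLKO 1 to 3 and at 4.17, 2.71 and 1.79 in KD 1 to 3. The ratio does not depend on library scaling, was chosen after the values were seen and was not tested.

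Mcm8 lies outside this ring: with Mcm9 it forms a helicase that acts in homologous recombination. It fell in KD, from 12.2, 11.1 and 8.09 FPKM in PLKO 1 to 3 to 4.16, 3.34 and 3.39 FPKM in KD 1 to 3. All 3 KD libraries lay close together, and the highest was well below the lowest PLKO library. The log2 fold change was -1.52 (SE 0.24, 95% confidence interval -2.06 to -0.97, limma adjusted p = 0.031, and 0.0026 with the block), a 2.86-fold lower level. The gene lies on chromosome 2 from 132816141 to 132844197 and was covered by 474 to 821 reads in PLKO and by 195 to 237 in KD. Its call was lost without PLKO 1, PLKO 2, KD 1 or KD 2 (limma adjusted p = 0.12, 0.12, 0.13 and 0.19), as for every gene of the table in these 4 fits, while its log2 fold change stayed between -1.69 and -1.39 whichever library was left out. Mcm10, which links the helicase to polymerase alpha, had a log2 fold change of 0.25 (limma adjusted p = 0.66).

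Of the genes that switch the helicase on, none was called in either fit. The log2 difference was 0.51 for Cdc7 and 0.23 for its activator Dbf4, at limma adjusted p = 0.39 and 0.53. Of the Cdc45-GINS genes, Gins1 was highest, with 9.73, 5.68 and 6.70 FPKM in PLKO and 17.2, 12.2 and 6.96 FPKM in KD. KD 3 lay inside the PLKO range (0.66, SE 0.35, limma adjusted p = 0.25). Cdc45 was lowest, with 27.5, 17.0 and 15.9 FPKM in PLKO and 19.8, 16.6 and 13.8 FPKM in KD, which overlapped (-0.24, limma adjusted p = 0.58). Gins2, Gins3 and Gins4 had log2 fold changes of -0.21, -0.01 and -0.02, and the 95% confidence interval of Gins3 reached from -1.31 to 1.30, so that its level is poorly fixed by these libraries.

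Polymerase alpha-primase was the complex in which all genes lay lower in KD (median log2 difference -1.02), although Pola2 was at 0.04 without PLKO 1. In 3 of the 4 genes of the complex the groups did not overlap, against 32.1% of all tested genes (18.8% lower in KD). Prim1 (chromosome 10, 128015168 to 128030037) had 19.9, 27.4 and 17.0 FPKM in PLKO 1 to 3 and 10.3, 7.77 and 8.35 FPKM in KD 1 to 3. The gap between the lowest control and the highest knockdown library exceeded the range of the KD group (-1.27, SE 0.24, 95% confidence interval -1.81 to -0.72, limma adjusted p = 0.040, and 0.0060 with the block). Prim2, the large primase subunit that partners Prim1, had 8.66, 4.32 and 7.20 FPKM in PLKO and 2.60, 2.07 and 3.28 FPKM in KD. Its difference was as large as that of Prim1 but its control libraries were more spread (-1.31, SE 0.32, limma adjusted p = 0.059, and 0.0067 with the block). Pola1, the catalytic polymerase subunit, had 12.2, 8.13 and 9.61 FPKM in PLKO and 5.54, 4.83 and 7.07 FPKM in KD, also without overlap (-0.78, SE 0.25, limma adjusted p = 0.092, and 0.035 with the block). Pola2, the accessory subunit, had 24.2, 15.0 and 16.3 FPKM in PLKO and 15.6, 17.1 and 15.6 FPKM in KD, which overlapped (-0.17, limma adjusted p = 0.65). The call of Prim1 was lost without PLKO 1, PLKO 2, KD 1 or KD 2 (limma adjusted p = 0.13, 0.13, 0.14 and 0.19), with log2 fold changes between -1.42 and -1.07 over the 6 fits that leave out 1 library, and without a variance trend (adjusted p = 0.053).

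The level of Prim1 was also set against its partners within each library, which is free of library scaling. Log2 Prim1 minus the mean of Pola1, Pola2 and Prim2 was 0.54, 1.76 and 0.71 in PLKO and 0.76, 0.48 and 0.23 in KD. The groups overlapped, with a difference of -0.51. An exact two-sided permutation test of 3 against 3 libraries cannot go below p = 0.1, so its p of 0.30 does not show whether Prim1 moved apart from its complex. PLKO 2 set most of it, since without that library it was -0.13. The ratio of Prim1 to Prim2 was 2.30, 6.35 and 2.36 in PLKO and 3.96, 3.75 and 2.54 in KD, and the log2 ratio differed by 0.04 between the groups. Against Mcm3 the contrast was large: the ratio of Mcm3 to Prim1 level was 2.04, 0.807 and 1.62 in PLKO and 17.6, 15.3 and 5.31 in KD. This pair was named because it was known to differ, and the ratio is given as a description.

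**Figure D2:**
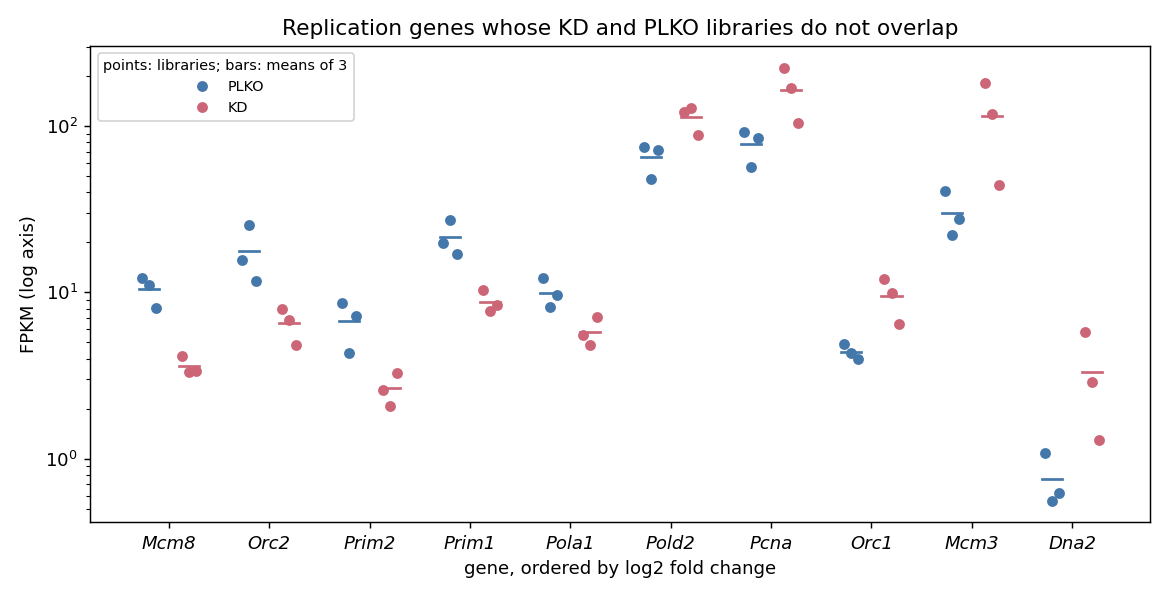
FPKM on a log axis of the 10 replication genes whose KD libraries (red) and PLKO libraries (blue) did not overlap, ordered by log2 fold change, with each point a library and each bar the mean of 3. Mcm8, Orc2, Prim2, Prim1 and Pola1 lie lower in KD, and Pold2, Pcna, Orc1, Mcm3 and Dna2 lie higher, with KD 3 nearest to the controls in all 5 of the latter.

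Among the polymerases that extend the primers, 1 of 3 delta genes and 0 of 4 epsilon genes were called with the block, against 19.3% of all tested genes. Pold2, the accessory subunit of polymerase delta, had 75.2, 48.3 and 71.7 FPKM in PLKO and 122, 129 and 88.7 FPKM in KD. The groups did not overlap (0.81, SE 0.25, limma adjusted p = 0.086, and 0.038 with the block). Pold1, the catalytic subunit, had 34.3, 18.4 and 19.8 FPKM in PLKO and 25.6, 22.3 and 22.2 FPKM in KD, with a log2 fold change of 0.01 and a 95% confidence interval from -0.59 to 0.60. Pold3 had a log2 fold change of 0.53 (limma adjusted p = 0.29). Of polymerase epsilon, Pole2 was lowest, with 9.80, 4.44 and 8.20 FPKM in PLKO and 5.16, 4.73 and 4.93 FPKM in KD, and Pole4 was highest, with 14.6, 12.5 and 22.8 FPKM in PLKO and 19.2, 16.0 and 14.9 FPKM in KD. Both overlapped, and the 4 epsilon genes had log2 fold changes from -0.52 to 0.04 (limma adjusted p from 0.29 to 0.93).

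Pcna, the sliding clamp, had 92.5, 56.9 and 84.6 FPKM in PLKO and 225, 169 and 104 FPKM in KD, on 2281 to 8346 reads. All KD libraries exceeded all PLKO libraries (1.05, SE 0.31, limma adjusted p = 0.081, and 0.017 with the block). Genes of RFC, the loader that opens the clamp, had log2 fold changes from -0.58 to 0.44 (limma adjusted p from 0.19 to 0.79). Rfc4 was lowest, with 76.5, 81.7 and 53.1 FPKM in PLKO and 57.9, 50.1 and 34.2 FPKM in KD, where KD 1 exceeded PLKO 3. It shares 194 bases of exon with Eif4a2 on the opposite strand.

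On the lagging strand, RPA coats the single-stranded template, Dna2 and Fen1 trim flaps and Lig1 seals the nicks. Dna2 had the highest log2 fold change of the 56 genes, 1.95 (SE 0.56, limma adjusted p = 0.075, and 0.0071 with the block). Its level was low, with 1.08, 0.56 and 0.622 FPKM in PLKO and 5.81, 2.90 and 1.30 FPKM in KD, on 113, 53 and 56 reads and on 526, 268 and 132 reads. The groups did not overlap, although KD 3 was near PLKO 1. A prior added to the deposited values understates fold changes at such depth. Fen1 was also low, at 1.27 ± 0.376 FPKM in PLKO and 2.72 ± 1.57 in KD (0.94, limma adjusted p = 0.25), and shares 1909 bases of exon with an antisense gene, Gm10143. Lig1 had 30.8, 11.1 and 20.6 FPKM in PLKO and 12.4, 11.8 and 18.5 FPKM in KD, which overlapped (-0.46, limma adjusted p = 0.44). The 3 RPA genes had log2 fold changes from 0.17 (Rpa1) to 0.44 (Rpa2). Rpa1 had 28.3, 24.3 and 29.5 FPKM in PLKO and 38.5, 32.2 and 23.2 FPKM in KD, and Rpa2 had 17.1, 14.9 and 12.9 FPKM in PLKO and 32.2, 21.7 and 11.7 FPKM in KD. In both, KD 3 was the lowest of the 6 libraries.

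The G1/S drivers lay higher in KD 1 and KD 2 and not in KD 3. Ccne2, a cyclin E, had 2.97, 2.69 and 3.74 FPKM in PLKO and 9.47, 5.35 and 2.94 FPKM in KD (0.77, SE 0.40, limma adjusted p = 0.24). Ccne1, the other cyclin E, had 6.81, 8.79 and 6.17 FPKM in PLKO and 16.5, 12.8 and 4.15 FPKM in KD (0.42, limma adjusted p = 0.58). E2f1 had a log2 fold change of 0.42 (limma adjusted p = 0.35), with 11.3 ± 2.77 FPKM in PLKO and 15.2 ± 4.34 FPKM in KD. At the fork, Clspn, the adaptor that passes the checkpoint signal from ATR to Chk1, had 6.08, 4.01 and 3.75 FPKM in PLKO and 12.8, 8.24 and 5.82 FPKM in KD. KD 3 lay just below PLKO 1 (0.91, SE 0.33, limma adjusted p = 0.12, and 0.018 with the block). Wdhd1, which ties polymerase alpha to the helicase, had 5.10, 3.86 and 2.51 FPKM in PLKO and 2.68, 1.97 and 2.10 FPKM in KD, where KD 1 just exceeded PLKO 3 (-0.72, SE 0.33, limma adjusted p = 0.19). Timeless and Tipin, partners in fork protection, had log2 fold changes of -0.20 and -0.16, and the CAF-1 genes Chaf1a and Chaf1b, which deposit histones behind the fork, of 0.51 and -0.12. For these 4 the limma adjusted p lay between 0.32 and 0.81.

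Differences between libraries of the same group ran through most of the genes. KD 1 was the highest of the 3 KD libraries in 46 of the 56 genes (82.1%, against 34.8% of all tested genes) and KD 3 the lowest in 44 (78.6%, against 45.1%). The median of log2 KD 1 minus KD 3 was 0.76 over the replication genes and 0.01 over all tested genes. Among controls, PLKO 1 was the highest in 45 of 56 genes (80.4%, against 25.4%), with a median of log2 PLKO 1 minus PLKO 3 of 0.44, against 0.03. The mean log2 level of the MCM2-7 genes, set to the PLKO mean, was 0.42, -0.33 and -0.10 in PLKO 1 to 3 and 1.49, 1.04 and -0.01 in KD 1 to 3. This mean of KD 3 lay within the control range. By gene, KD 3 lay within the PLKO range in 3 of the 6, above it in Mcm3 and below it in Mcm5 and Mcm7. Polymerase alpha-primase stood at 0.27, -0.19 and -0.08 in PLKO and at -0.85, -1.05 and -0.75 in KD, where all 3 KD libraries were low. These values describe the 6 libraries and carry no test.

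**Figure D3:**
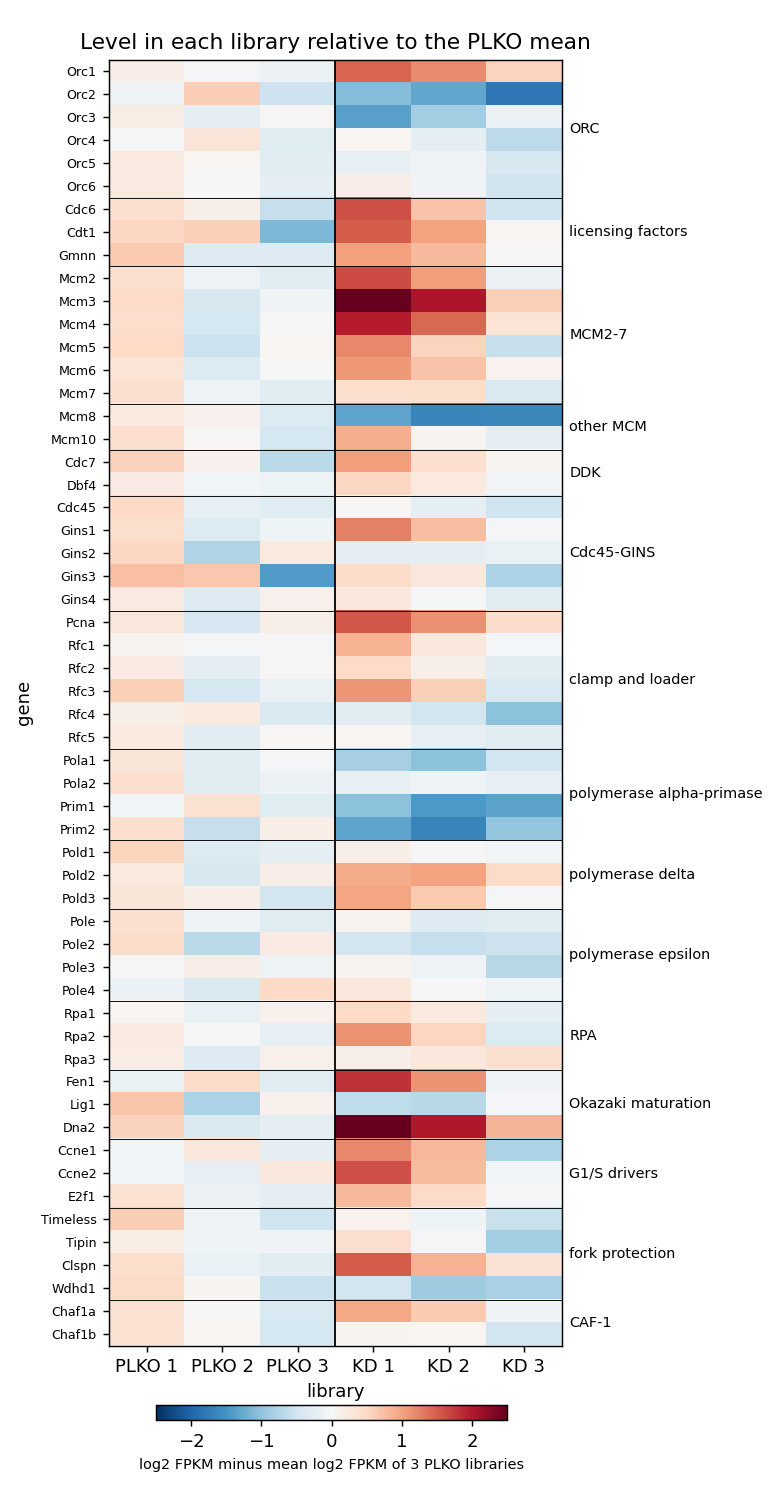
Level of each of the 56 genes (rows, by complex) in each of the 6 libraries (columns), as log2 FPKM minus the mean of the 3 PLKO libraries, from blue (lower) to red (higher). The red of the MCM2-7 rows is strongest in KD 1 and KD 2, and in KD 3 only their mean is near 0 (means 1.49, 1.04 and -0.01). Mcm8, Prim1 and Prim2 are blue in all 3 KD libraries.

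The calls depended on single libraries. Without KD 3, 17 of the 56 genes were called, 11 higher and 6 lower (30.4%, against 16.2% of all tested genes, 6.81% higher and 9.39% lower), and 31 had groups that did not overlap (against 55.2% of all tested genes). Without both libraries numbered 3, 20 were called, 13 higher and 7 lower (35.7%, against 27.9% of all tested genes, 11.9% higher and 16% lower), and in 36 the groups did not overlap, against 68.8% of all tested genes. With array weights 20 were called, against 33.4% of all tested genes, and without PLKO 3 the count was 3, against 7.44%. Without KD 1 the median log2 fold change of the 56 genes was -0.04, with 27 higher, compared with 0.17 and 32 in all libraries, and in 14 the groups did not overlap, against 36.1% of all tested genes. Without PLKO 1, PLKO 2, KD 1 or KD 2 limma called 0 of the 56 genes and 0 of all 10770. At an unadjusted p under 0.05 there were 13, 14, 12 and 11 of the 56 genes. Of all 10770 tested genes there were 2217, 2315, 1818 and 1793.

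**Figure D4:**
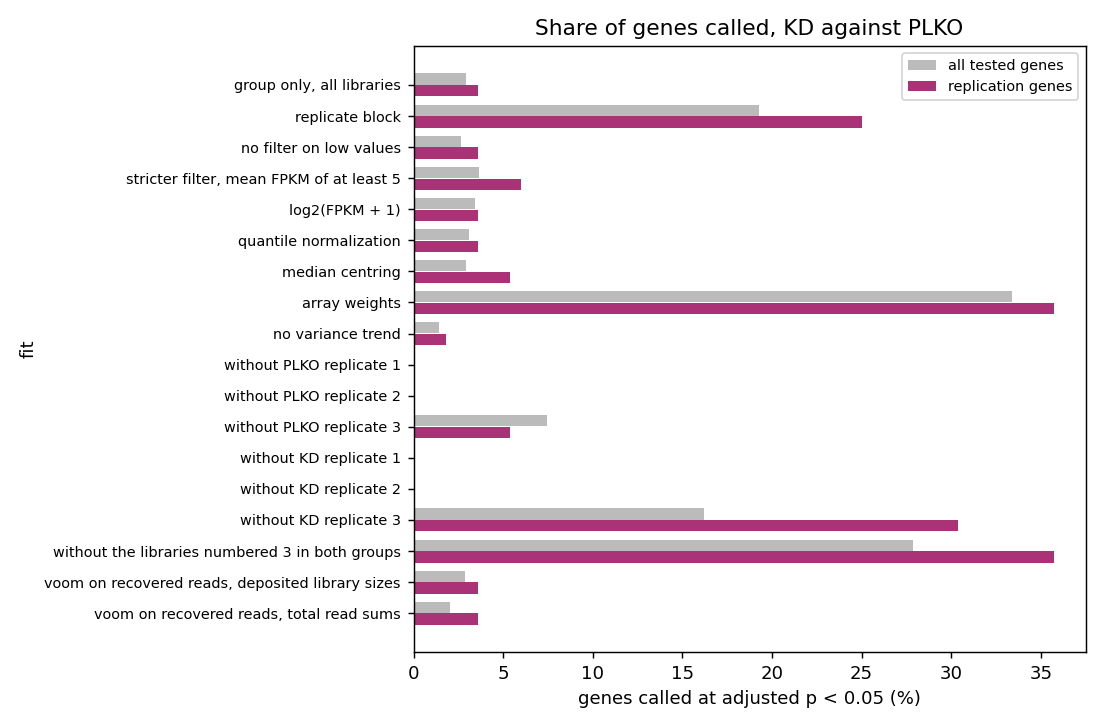
Percent of genes called at a limma adjusted p under 0.05 in each fit (bars from 0), for the 56 replication genes and for all tested genes. The shares of the replication genes and of all tested genes are 3.57% and 2.92% with all libraries and 25.0% and 19.3% with the replicate block, and the widest gap is without KD 3 (30.4% and 16.2%).

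Other genes of replication were read from a pair of lists. Of 48 accessory factors, 47 were tested, 22 higher and 25 lower (median log2 difference -0.03). None of them was called by limma (14 were at an unadjusted p under 0.05, as were 2977 of all 10770 tested genes). With the block 6 were called higher and 3 lower, which is 19.1% against 19.3% of all tested genes. Skp2, the ubiquitin ligase subunit that marks p27 and Cdt1, had 3.60, 3.87 and 3.26 FPKM in PLKO and 16.7, 10.4 and 4.23 FPKM in KD (1.34, limma adjusted p = 0.097, and 0.013 with the block). Cdc25a, a phosphatase that turns on Cdk2, and Cdk2 itself differed by 1.28 and 0.92 on the log2 scale (limma adjusted p = 0.081 and 0.085, with the block 0.019 and 0.024). Exo1, Hus1 and Atad5 had 1.20, 0.81 and 0.78 (limma adjusted p = 0.11, 0.22 and 0.24, with the block 0.013, 0.036 and 0.036). The 3 called lower with the block were Poldip2, Chtf8 and Lrwd1, at -0.94, -0.84 and -0.81 (limma adjusted p = 0.055, 0.062 and 0.084, with the block 0.012, 0.022 and 0.039). Chtf8 belongs to an alternative clamp loader and Lrwd1 binds ORC. Dscc1, a partner of Chtf8, had the lowest log2 fold change of the list, -1.04 (limma adjusted p = 0.14, and 0.053 with the block).

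Among 18 genes of nucleotide supply and E2F control, 11 lay higher and 7 lower, with a median of 0.41. E2f7, a repressor of E2F targets, rose from 2.13, 1.92 and 2.01 FPKM in PLKO to 8.43, 5.33 and 4.31 FPKM in KD. It was the 1 gene of this list called (5.56%, against 2.92% of all tested genes), with no overlap and tight controls (1.52, SE 0.30, limma adjusted p = 0.043, and 0.0048 with the block). Its call was also lost without PLKO 1, PLKO 2, KD 1 or KD 2, with adjusted p up to 0.19. With the block 5 were called higher, E2f7, E2f2, Slbp, Cdkn1a and E2f8, and 1 lower, Tk1, which is 33.3% against 19.3% of all tested genes. E2f2, Slbp, Cdkn1a and E2f8 differed by 1.37, 1.10, 1.01 and 0.91 on the log2 scale (limma adjusted p = 0.21, 0.081, 0.17 and 0.11, with the block 0.0062, 0.020, 0.012 and 0.022). In E2f2, KD 3 at 2.39 FPKM lay within the PLKO range of 1.09 to 3.75 FPKM, and its log2 fold change ran from 0.81 to 2.04 when 1 library was left out. Tk1, thymidine kinase, had 17.7, 7.53 and 7.86 FPKM in PLKO and 6.27, 5.99 and 5.14 FPKM in KD (-0.81, adjusted p = 0.16, and 0.043 with the block, limma).

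Gene size and exon number were set beside the differences. Across the 56 genes, Spearman's rho between the span of the gene on the chromosome and its log2 fold change was -0.35, against -0.01 over 10522 tested genes with a matched annotation. For the number of distinct annotated exons it was -0.18 and -0.08. The genes share the same 6 libraries, so no p is given. Pola1 and Prim2, both of polymerase alpha-primase, had the longest spans, 327389 and 215986 bases, and both lay lower in KD. The next longest, Pole4 and Rfc1 (86374 and 73821 bases), had log2 fold changes of 0.04 and 0.36. Prim1 and Mcm8, which fell, spanned 14870 and 28057 bases, on either side of the median of 20700 bases.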

How the data were processed

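Poly(A)-captured RNA of 3 KD and 3 PLKO libraries was sequenced. The authors deposited 1 table of log2 FPKM for 11866 genes, and the submitters' processing notes name GRCm38 as build and FastQC 0.11.7 among the tools. Not given in the sources used here are aligner, counter, strand setting and filter. The scale was read from the values: 21 genes shared exact floors (tolerance 1e-07), whose steps are whole reads over a prior averaging 2.0 reads. With GENCODE M21 exonic lengths (10962 genes) or scanned lengths (904 genes), 100% of genes gave whole reads within 0.01 reads. Levels printed as FPKM were obtained by raising 2 to the deposited log2 value.

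limma 3.58.1 (R 4.3.3) with a variance trend was fitted to the log2 values of the 10770 genes with a mean of at least 1 FPKM, with group alone, and Benjamini-Hochberg adjusted p under 0.05 were called. Scripts were tested on simulated data with 200 of 10770 genes changed and libraries drawn without pairing. The fit with group alone recovered 19% of 2-fold and 62% of 4-fold changes, and the block fit 0% and 20%. A gene not called here may thus have changed 2-fold. Members and lists were chosen with earlier results of these data known. Values per library are given for genes called with or without the block, for Prim1 and Mcm3, and for the highest and lowest gene of each complex with at least 3 genes. In the accessory lists, genes called with or without the block and otherwise the extremes are named. Orc3, and the ratios other than that of Prim1 to its complex, were chosen after their values were seen.

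Equal replicate numbers were taken to pair libraries, since deviations from group means correlated at 0.18, 0.29 and 0.50 for numbers 1, 2 and 3, above the limit of 0.1. The pairing comes from the data and is ambiguous, as libraries of unequal number also correlated (0.27 for PLKO 1 and KD 2, 0.30 for PLKO 2 and KD 1).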

Additional observations from a re-analysis of the deposited data

How the results depend on the processing

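The number of replication genes called was 2 with all libraries (3.57%, against 2.92% of all tested genes). It was 14 with the replicate block (25.0% against 19.3%) and 20 with array weights (35.7% against 33.4%). It was 1 without a variance trend (1.79% against 1.4%) and 20 without the libraries numbered 3 in both groups (35.7% against 27.9%). When 1 library was left out it ran from 0 to 17, the latter without KD 3 (30.4% against 16.2%). The 65 genes of the accessory and nucleotide lists held 1 call (1.54%, against 2.92% of all tested genes). They held 15 with the replicate block (23.1% against 19.3%), 26 with array weights (40% against 33.4%) and 19 without both libraries numbered 3 (29.2% against 27.9%). When 1 library was left out they held 0 to 14, the latter without KD 3 (21.5% against 16.2%). Groups did not overlap for 10 genes (17.9%, against 32.1% of all tested genes) and for 36 without both libraries numbered 3 (against 68.8%). When 1 library was left out they did not overlap for 10 to 31 genes, the latter without KD 3 (against 55.2%). The cause of these changes was not tested. Smaller groups make overlap rarer by themselves, and their part in these changes was not tested either. Array weights used limma's gene-by-gene method, since the default did not converge and gave KD 2 a weight of 44.7. The method used gave weights of 1.43, 0.567 and 0.55 to PLKO 1 to 3. It gave 1.07, 5.63 and 0.371 to KD 1 to 3, so the calls with array weights also lean most on KD 2. Quantile normalization or median centring put 34 genes higher in place of 32. The median log2 fold change ran from -0.04 to 0.37 and the difference of Prim1 to its complex from -0.74 to -0.13 when 1 library was left out. The latter was not computed at the stricter minimum of 5 FPKM, which removes Prim2. Pold1 changed sign with array weights (-0.22), without both libraries numbered 3 (-0.07) and when 1 library was left out (-0.16 to 0.29). Cdc45 (-0.39 to 0.01), Pola2 (-0.31 to 0.04) and Pole4 (-0.14 to 0.29) changed sign in refits that left out 1 library. Refits were tallied over the 29 replication genes whose values per library were planned, which leaves out Orc3. Of these refits 412 kept direction and call, 58 gained a call, 9 lost one and 10 changed sign. Voom on recovered reads, added after the data were seen, called the 2 genes called here. Over all 56 genes, 15 changed sign in at least 1 refit, none of them called with or without the replicate block, and their log2 fold changes were at most 0.39 in size with all libraries. The block leaves fold changes as they are in this balanced design.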
